A study of Mus musculus with 9 samples.

Results

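The genes described here are 10 transcripts of the early-response type in RAW264.7 cells, an established mouse macrophage line. They are the EGR genes Egr1, Egr2 and Egr3, the NR4A genes Nr4a1, Nr4a2 and Nr4a3, the IER genes Ier2, Ier3 and Ier5, and Arc. They were taken by gene symbol from the 56748 genes of the deposited table by a rule that uses no measured value, although the list was drawn up with earlier results of these data known, and all 10 passed the filter on low counts. The RNA sequencing libraries fell into 3 groups of 3, all from this 1 line and all under what the labels call a model condition, with no further name. The PBS group, labelled by its buffer, was the control without particles, under the same model condition. The P-Mn@mHSA group received nanoparticles that carry nanoenzymes, which are materials with enzyme-like activity. Cells of the P-Mn/TI@mHSA group received particles loaded with nanoenzymes and, in addition, with a TRAF6 inhibitor, TRAF6 being the ubiquitin ligase through which Toll-like receptors signal. The labels give no dose, no time after treatment and no group with the inhibitor alone, so the direct comparison of the particles is of 2 formulations.

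Early-response genes are transcribed soon after a stimulus by factors that the cell already holds, without new protein synthesis. Signals through ERK kinases reach serum response factor (SRF) at CArG boxes, and signals through cyclic AMP or calcium reach CREB at the cyclic AMP response element (CRE). EGR proteins are zinc-finger transcription factors that bind GC-rich sites. NR4A proteins are orphan nuclear receptors, known in macrophages as restraints on inflammatory gene expression.

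Total counts were 13994570 to 15543439 per library, and log2 CPM correlated at 0.9881 to 0.9915 across genes within groups and at 0.9589 to 0.99 between groups. Of 9 macrophage markers, 8 exceeded 1 CPM and Mertk was near 0, and their summed level was 6250 to 6527 CPM with PBS, 4733 to 5052 with P-Mn@mHSA and 4934 to 5287 with P-Mn/TI@mHSA. Of 18 markers of other cell types, 8 were at 0 in all libraries and 3 exceeded 1 CPM in any, and they summed to 3.773 to 7.785 CPM. The mitochondrial share of counts was 1.773 to 2.199% with PBS, 1.31 to 1.793% with P-Mn@mHSA and 1.115 to 1.341% with P-Mn/TI@mHSA. Replicate 2 of P-Mn@mHSA stood apart, at 1.793% against 1.346 and 1.31% in replicates 1 and 3. The Pearson chi-square of its counts against theirs, per degree of freedom, was 9.24 and 13.1, and 3.8 between replicates 1 and 3. In the other groups it was 4.7 to 6.51. The macrophage markers did not move together: mean Lyz2 was 1910 CPM with PBS, 568 with P-Mn@mHSA and 501 with P-Mn/TI@mHSA, and Adgre1, Itgam and Cd14 were also lower, while Csf1r, at 1700, 2080 and 2360 CPM, Fcgr1, Cd68 and Spi1 were higher. The marker levels and the mitochondrial share differed between the groups, and their part in the results below was not tested. The measurements are from bulk RNA, in which more transcript per cell and more cells with the transcript cannot be told apart.

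With P-Mn@mHSA, 7 of the 10 genes rose against PBS and 2 fell. The 7 that rose were the EGR genes, the IER genes and Arc, and the 2 that fell were Nr4a1 and Nr4a3. Genes were called changed at an edgeR Benjamini-Hochberg adjusted p under 0.05 (two-sided). By that rule 24.3% of the 12454 tested genes were higher and 24.1% lower, so 48.5% were called in all, against 9 of these 10. Egr1, Egr3 and Arc rose by 2-fold or more, against 3.06% of tested genes, and 0 of the 10 fell as far, against 5.67%. In all 9 called genes the libraries of both groups did not overlap, as for 27.3% of tested genes upward and 27.4% downward. With P-Mn/TI@mHSA, 6 of the 10 rose against PBS and 4 fell, where 27.1% of tested genes were higher and 27.3% lower, 54.4% in all. The 4 that fell were the NR4A genes and Ier3, and the 4 that rose by 2-fold or more were the EGR genes and Arc, against 2.65% of tested genes. Nr4a3 fell by 2-fold or more, against 7.32%. The groups did not overlap for any of the 10, as for 30.9% of tested genes upward and 30.7% downward. The median log2 fold change of the 10 was 0.526 with P-Mn@mHSA and 0.535 with P-Mn/TI@mHSA, beside -0.00227 and -0.0063 over all tested genes. These comparisons share the PBS libraries.

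**Figure D1:**
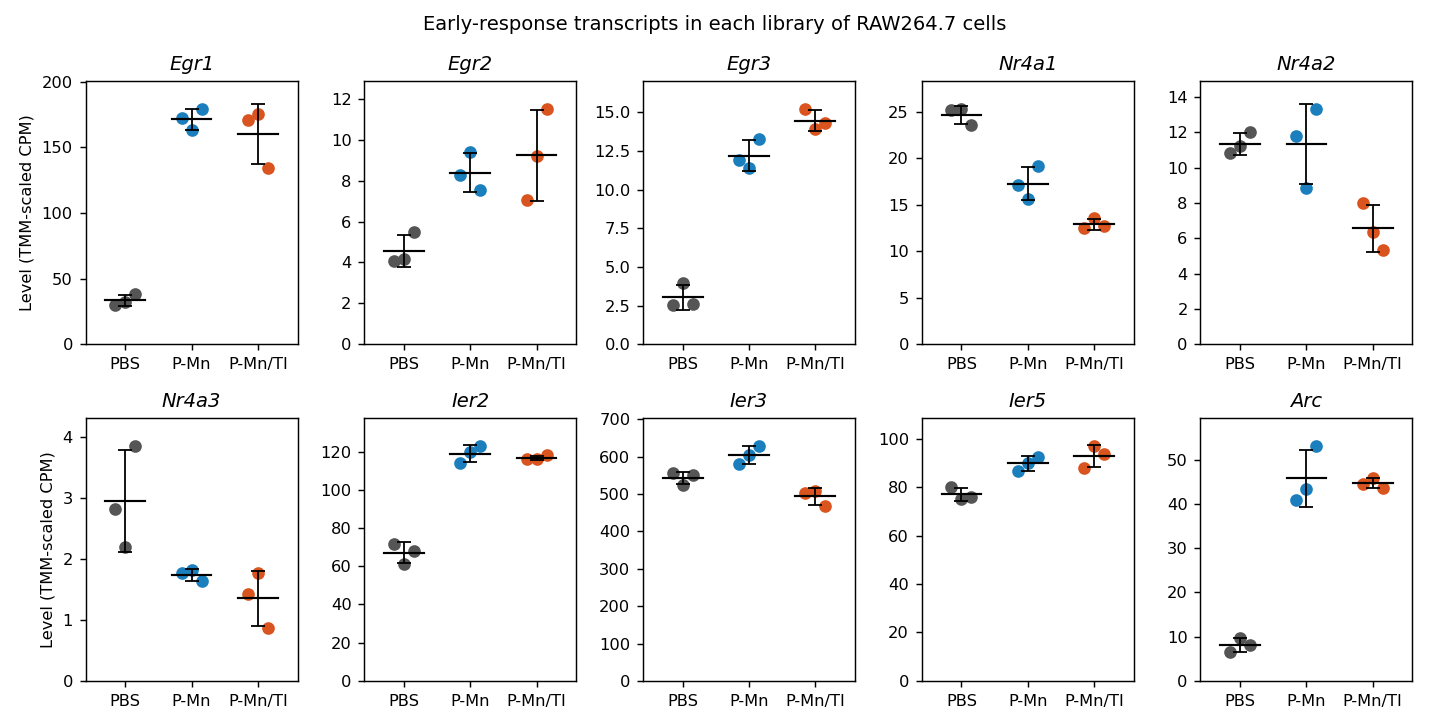
Level of each of the 10 genes in the 9 libraries, in CPM scaled by TMM, with P-Mn for P-Mn@mHSA and P-Mn/TI for P-Mn/TI@mHSA. Points are libraries, the wide bar is the group mean and the narrow bars are ±1 SD of 3 libraries. Egr1 lay at 29.6 to 38.3 CPM with PBS and at 134 CPM or more with either particle, while Nr4a1 was lower in each treated library than in any PBS library.

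Egr1 (ENSMUSG00000038418, chromosome 18), which encodes the founding member of the EGR family, rose about 5-fold with both particles. Its level was 29.6, 32.2 and 38.3 CPM in the PBS libraries, 172, 163 and 179 CPM with P-Mn@mHSA, and 171, 175 and 134 CPM with P-Mn/TI@mHSA. Every treated library lay above every PBS library, and the treated groups overlapped each other. The fold change was 5.13 with P-Mn@mHSA (log2 fold change 2.36 ± 0.0997 SE, edgeR adjusted p = 4.92e-14) and 4.8 with P-Mn/TI@mHSA (2.26 ± 0.0996, adjusted p = 1.03e-13). Among the log2 fold changes of the 12454 tested genes, counted from the highest, that of Egr1 was at place 69 and place 62.

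Egr3 (ENSMUSG00000033730, chromosome 14), whose protein shares the EGR zinc fingers and is known for a role in lymphocytes and muscle spindles, rose by 4.04- and 4.77-fold from a low level. It was at 2.54, 3.96 and 2.57 CPM with PBS, at 11.9, 11.4 and 13.3 CPM with P-Mn@mHSA, and at 15.2, 13.9 and 14.3 CPM with P-Mn/TI@mHSA. The 3 groups did not overlap, with PBS lowest and P-Mn/TI@mHSA highest. The log2 fold change was 2.01 ± 0.173 SE with P-Mn@mHSA (edgeR adjusted p = 5.22e-09) and 2.26 ± 0.171 with P-Mn/TI@mHSA (adjusted p = 6.9e-10). These sit at places 103 and 64 among the tested genes.

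Egr2 (ENSMUSG00000037868, chromosome 10), known for hindbrain and myelin development and, in macrophages, for alternative activation, rose less than its relatives. It was at 4.06, 4.17 and 5.47 CPM with PBS, at 8.26, 9.42 and 7.53 CPM with P-Mn@mHSA, and at 7.05, 9.2 and 11.5 CPM with P-Mn/TI@mHSA. The treated libraries were all above the PBS libraries, and P-Mn/TI@mHSA had the widest spread. The log2 fold change was 0.88 ± 0.194 SE with P-Mn@mHSA (edgeR adjusted p = 0.000791) and 1.02 ± 0.192 with P-Mn/TI@mHSA (adjusted p = 0.000128), or 1.84- and 2.03-fold. The 95% intervals were 0.475 to 1.28 and 0.619 to 1.42, whereas the lower bound for Egr1 was 2.15 and 2.06. The difference between these genes was not tested.

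Arc (ENSMUSG00000022602, chromosome 15), which encodes a cytoskeleton-associated protein best known from active synapses, followed Egr1. Its level was 6.46, 9.63 and 8.1 CPM with PBS, 40.9, 43.3 and 53.1 CPM with P-Mn@mHSA, and 44.6, 45.8 and 43.5 CPM with P-Mn/TI@mHSA. The PBS libraries stood far below all 6 treated libraries. The rise was 5.66-fold with P-Mn@mHSA (log2 fold change 2.50 ± 0.126 SE, edgeR adjusted p = 9.21e-13) and 5.53-fold with P-Mn/TI@mHSA (2.47 ± 0.126, adjusted p = 1.08e-12). That put Arc at places 57 and 49 from the top of the tested genes, the highest of the 10 in both comparisons.

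The RefSeq promoter windows, which run from 250 bases before to 50 after an annotated start site on GRCm38.p6, held entries for 6 of the 10 genes. These were Egr2, the NR4A genes, Ier3 and Ier5, and Egr1, Egr3, Ier2 and Arc were not matched. The windows were searched on both strands for 7 motifs: the CArG box and the NF-kB site by their names, the CRE core TGACG, the full CRE TGACGTCA, which contains that core, the EGR site GCGNGGGCG, the NR4A monomer element NBRE AAAGGTCA, and the AP-1 site TGANTCA. Egr2 is shown because it is the EGR gene with a window. Of its 5 RefSeq windows, the 1 at the start of its GENCODE principal transcript is printed, from chr10:67537619-67537918 on the plus strand. Capitals mark the CArG box and the CRE core.
Egr2: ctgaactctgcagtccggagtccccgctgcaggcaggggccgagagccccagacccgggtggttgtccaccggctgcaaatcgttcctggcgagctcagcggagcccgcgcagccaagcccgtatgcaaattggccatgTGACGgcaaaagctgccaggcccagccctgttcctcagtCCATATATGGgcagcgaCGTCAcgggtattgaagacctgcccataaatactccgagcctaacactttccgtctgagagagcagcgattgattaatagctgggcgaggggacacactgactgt
The CArG box, the binding site of SRF, begins at position -72 from the start site, and CRE cores begin at -111 and -55. A CArG box was found in 1.63% of the 32851 RefSeq windows and a CRE core in 20.8%. A match to letters describes the sequence and does not show that a factor was bound.

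Of the NR4A genes, Nr4a1 and Nr4a3 fell with both particles and Nr4a2 with P-Mn/TI@mHSA. Nr4a1 (ENSMUSG00000023034, chromosome 15), which encodes the nuclear receptor Nur77, fell with both particles and further with P-Mn/TI@mHSA. Its level was 25.2, 25.3 and 23.6 CPM with PBS, 17.1, 15.6 and 19.2 CPM with P-Mn@mHSA, and 12.5, 13.6 and 12.7 CPM with P-Mn/TI@mHSA. The 3 groups formed 3 separate ranges, stepping down from PBS to P-Mn@mHSA to P-Mn/TI@mHSA. It was 1.43-fold lower than with PBS after P-Mn@mHSA (log2 fold change -0.51 ± 0.11 SE, edgeR adjusted p = 0.000593) and 1.91-fold lower after P-Mn/TI@mHSA (-0.93 ± 0.112, adjusted p = 5.12e-07). Nr4a1 overlaps a long non-coding gene, ENSMUSG00000121015, on the same strand in the table, which had at most 23 counts in a library.

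Nr4a2 (ENSMUSG00000026826, chromosome 2), which encodes Nurr1, a receptor required for dopamine neurons, fell with P-Mn/TI@mHSA. Its level was 10.8, 11.2 and 12.0 CPM with PBS, 11.8, 8.86 and 13.3 CPM with P-Mn@mHSA, and 8.0, 6.33 and 5.36 CPM with P-Mn/TI@mHSA. The P-Mn@mHSA libraries spread to either side of PBS, and the P-Mn/TI@mHSA libraries were below all others. The fold change with P-Mn/TI@mHSA was 1.73-fold lower (log2 fold change -0.79 ± 0.171 SE, edgeR adjusted p = 0.000541). With P-Mn@mHSA the log2 fold change was 0.00 ± 0.163 (adjusted p = 0.996), with a 95% interval of -0.337 to 0.34.

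Nr4a3 (ENSMUSG00000028341, chromosome 4), which encodes the third receptor of the family, NOR-1, was scarce. It had 41, 32 and 57 counts with PBS, 26, 26 and 23 with P-Mn@mHSA, and 21, 27 and 13 with P-Mn/TI@mHSA, or 2.95 ± 0.839, 1.74 ± 0.0928 and 1.35 ± 0.45 CPM (SD, n = 3). Every treated library was below every PBS library. The log2 fold change was -1.12 ± 0.318 SE with P-Mn/TI@mHSA (edgeR adjusted p = 0.00513), 2.17-fold lower. With P-Mn@mHSA it was -0.76 ± 0.309 (adjusted p = 0.0461), and this call was lost with DESeq2 (adjusted p = 0.1064), with the replicate block (0.06684) and when any 1 library was left out other than PBS replicate 2 or P-Mn/TI@mHSA replicates 2 and 3, with an adjusted p of up to 0.2407, reached without PBS replicate 3.

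The promoter windows of the 3 NR4A genes are shown because each holds several CRE cores. They lie at chr15:101266596-101266895 on the plus strand for Nr4a1, chr2:57123954-57124253 on the minus strand for Nr4a2, and chr4:48045055-48045354 on the plus strand for Nr4a3. Capitals mark the CRE core on either strand, written CGTCA where it lies on the opposite strand, and the NF-kB site.
Nr4a1: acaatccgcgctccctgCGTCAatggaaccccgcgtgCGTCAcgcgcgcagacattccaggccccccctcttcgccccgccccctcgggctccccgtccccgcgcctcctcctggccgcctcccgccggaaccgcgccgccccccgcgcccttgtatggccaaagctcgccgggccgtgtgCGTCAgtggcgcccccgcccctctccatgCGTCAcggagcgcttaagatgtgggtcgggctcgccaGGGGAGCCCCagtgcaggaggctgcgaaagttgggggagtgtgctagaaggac
Nr4a2: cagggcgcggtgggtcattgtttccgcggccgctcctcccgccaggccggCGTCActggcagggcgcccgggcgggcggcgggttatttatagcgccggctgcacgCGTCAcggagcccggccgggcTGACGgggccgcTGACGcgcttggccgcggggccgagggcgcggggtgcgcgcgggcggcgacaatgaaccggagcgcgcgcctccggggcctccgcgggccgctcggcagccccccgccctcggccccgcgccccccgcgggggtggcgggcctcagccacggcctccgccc
Nr4a3: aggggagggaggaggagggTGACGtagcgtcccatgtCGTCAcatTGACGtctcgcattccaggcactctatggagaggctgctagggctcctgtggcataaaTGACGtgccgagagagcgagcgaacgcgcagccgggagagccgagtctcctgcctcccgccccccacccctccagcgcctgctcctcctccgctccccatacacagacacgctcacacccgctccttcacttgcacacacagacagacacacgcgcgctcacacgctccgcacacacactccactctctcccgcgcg
Each of the 3 windows held 4 CRE cores. They begin at -233, -213, -69 and -40 in Nr4a1, at -200, -144, -123 and -111 in Nr4a2, and at -231, -213, -205 and -147 in Nr4a3. Positions count from the RefSeq start site, which is that of the GENCODE principal transcript for Nr4a1 and Nr4a2. For Nr4a3 it lies 152 bases from the principal start. Among all windows 0.231% held 4 or more, a number chosen after the NR4A windows had been read. An EGR site was found at -60 in Nr4a1 and at -74 in Nr4a2, against 5.55% of all windows, and an NF-kB site at -3 in Nr4a1. The NBRE, which NR4A proteins bind as monomers, the full CRE and the AP-1 site were found in none of the 6 windows. Among all windows they were found in 1.51%, 1.79% and 7.81%.

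**Figure D2:**
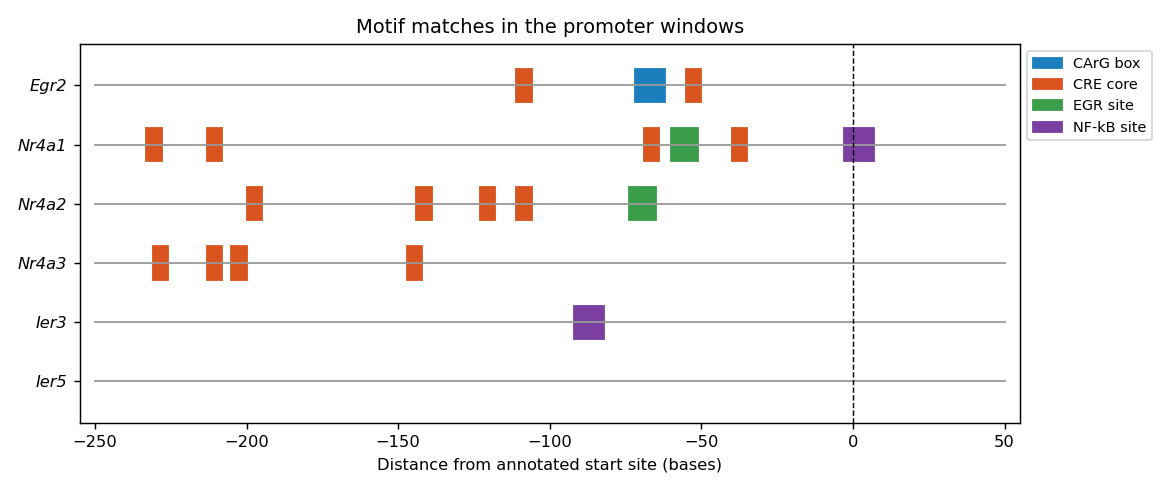
Motif matches in the 6 promoter windows, by distance in bases from the annotated start site (dashed line). Boxes cover the bases of each match on either strand. The 3 NR4A windows hold 4 CRE cores each, Egr2 holds the CArG box with 2 CRE cores, Ier3 holds an NF-kB site and Ier5 holds none of the 7 motifs.

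The IER genes, named for immediate early response, differed from each other. Ier2 (ENSMUSG00000053560, chromosome 8), which encodes a small nuclear protein, rose with both particles. It was at 71.9, 61.1 and 68.0 CPM with PBS, at 114, 120 and 123 CPM with P-Mn@mHSA, and at 116, 116 and 118 CPM with P-Mn/TI@mHSA. All 6 treated libraries lay above the PBS libraries within a narrow range. The rise was 1.78-fold with P-Mn@mHSA (log2 fold change 0.83 ± 0.0703 SE, edgeR adjusted p = 3.96e-09) and 1.74-fold with P-Mn/TI@mHSA (0.80 ± 0.0702, adjusted p = 6.3e-09).

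Ier5 (ENSMUSG00000056708, chromosome 1), whose protein is known to act with the heat shock factor HSF1, rose slightly. Its level was 80.0, 75.0 and 76.0 CPM with PBS, 86.6, 90.1 and 92.6 CPM with P-Mn@mHSA, and 88.0, 97.0 and 93.7 CPM with P-Mn/TI@mHSA. The treated libraries were all above PBS by a small margin. The rise was 1.17-fold with P-Mn@mHSA (log2 fold change 0.22 ± 0.0685 SE, edgeR adjusted p = 0.0106) and 1.21-fold with P-Mn/TI@mHSA (0.27 ± 0.0683, adjusted p = 0.00205).

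Ier3 (ENSMUSG00000003541, chromosome 17), also called IEX-1, an NF-kB target known for effects on cell survival, was slightly higher with P-Mn@mHSA and slightly lower with P-Mn/TI@mHSA. Its level was 556, 525 and 550 CPM with PBS, 580, 605 and 629 CPM with P-Mn@mHSA, and 503, 509 and 469 CPM with P-Mn/TI@mHSA. The 3 groups did not overlap, with PBS in the middle. The difference from PBS was 1.11-fold upward with P-Mn@mHSA (log2 fold change 0.15 ± 0.0577 SE, edgeR adjusted p = 0.0321) and 1.1-fold downward with P-Mn/TI@mHSA (-0.14 ± 0.0578, adjusted p = 0.0482). Both calls lie near the threshold and both were lost with limma on log2(FPKM + 1) (adjusted p = 0.05881 and 0.08992) and with the replicate block (0.05453 and 0.07533). The first was also lost with upper-quartile scaling (0.07139), and the second with no filter (0.1326) and in the fit of its 6 libraries (0.0621). The first was lost without PBS replicate 2, PBS replicate 3 or P-Mn@mHSA replicate 3 (up to 0.1195), and the second without PBS replicates 1 or 3, P-Mn@mHSA replicates 1 or 3, or P-Mn/TI@mHSA replicates 1 or 3 (up to 0.2222). The Ier3 window is shown for the NF-kB site in capitals, which begins at -92 and was found in 4.51% of all windows. It lies at chr17:35821463-35821762 on the plus strand, and its RefSeq start site is 29 bases from that of the GENCODE principal transcript.
Ier3: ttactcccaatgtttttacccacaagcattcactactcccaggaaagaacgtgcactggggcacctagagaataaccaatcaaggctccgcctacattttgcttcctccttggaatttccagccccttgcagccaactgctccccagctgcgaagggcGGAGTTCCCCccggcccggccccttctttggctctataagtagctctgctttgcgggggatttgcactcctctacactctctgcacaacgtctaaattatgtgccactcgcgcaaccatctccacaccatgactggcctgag

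Of 3 further genes of these families, Ier5l had 7, 5 and 0 counts with PBS, 14, 10 and 14 with P-Mn@mHSA, and 16, 13 and 9 with P-Mn/TI@mHSA. It passed the filter on low counts only through the groups with particles, so it is given here by its counts and not as a call. Egr4 had 0 counts in the 9 libraries, and Wt1, a zinc-finger gene related to the EGR genes, had 2 counts in PBS replicate 2 and 0 elsewhere.

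The direct comparison of the particles asks what differed when the TRAF6 inhibitor was in the formulation. Of the 10 genes, 3 were lower with P-Mn/TI@mHSA than with P-Mn@mHSA and 0 were higher by edgeR, against 2.34% and 1.48% of tested genes, 3.82% in all. None of the 10 differed by 2-fold or more, against 0.0161% of tested genes upward and 0.145% downward. At an unadjusted p under 0.05 the counts were also 3 lower and 0 higher, and DESeq2 also called 0 higher. Nr4a2 differed most, 1.73-fold lower (log2 fold change -0.79 ± 0.172 SE, 95% interval -1.15 to -0.434, edgeR adjusted p = 0.0114), at place 232 counted from the lowest. Ier3 was 1.22-fold lower (-0.29 ± 0.0578, adjusted p = 0.00658) and Nr4a1 was 1.34-fold lower (-0.42 ± 0.115, adjusted p = 0.0431). In these 3 genes the particle groups did not overlap, as in 11.7% of tested genes in that direction.

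The Nr4a1 and Nr4a2 calls between particles were less firm than that of Ier3. Nr4a1 lost its call when any 1 library other than P-Mn@mHSA replicate 2 was left out, with an adjusted p of 0.05004 to 0.1596, and also in the fit of the 6 libraries compared (0.06713) and with the replicate block (0.06784). Nr4a2 lost its call without P-Mn/TI@mHSA replicate 3 (adjusted p = 0.0723), the library with its lowest level, and kept it without each other library. On log2(FPKM + 1) with limma none of the 3 passed, at an adjusted p of 0.08283 for Nr4a1, 0.09878 for Nr4a2 and 0.07691 for Ier3.

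For the other 7 genes no difference between the particles passed the threshold, and the intervals give the sizes that remain possible. On the log2 scale the 95% interval was -0.283 to 0.0911 for Egr1, -0.255 to 0.185 for Arc, -0.172 to 0.112 for Ier2 and -0.0918 to 0.19 for Ier5. It was wider for Egr2, at -0.233 to 0.513, for Egr3, at -0.0582 to 0.542, and for Nr4a3, at -1.06 to 0.347. Egr3 was the 1 gene of these whose particle groups did not overlap, with P-Mn/TI@mHSA higher (edgeR adjusted p = 0.365), as in 12.3% of tested genes.

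**Figure D3:**
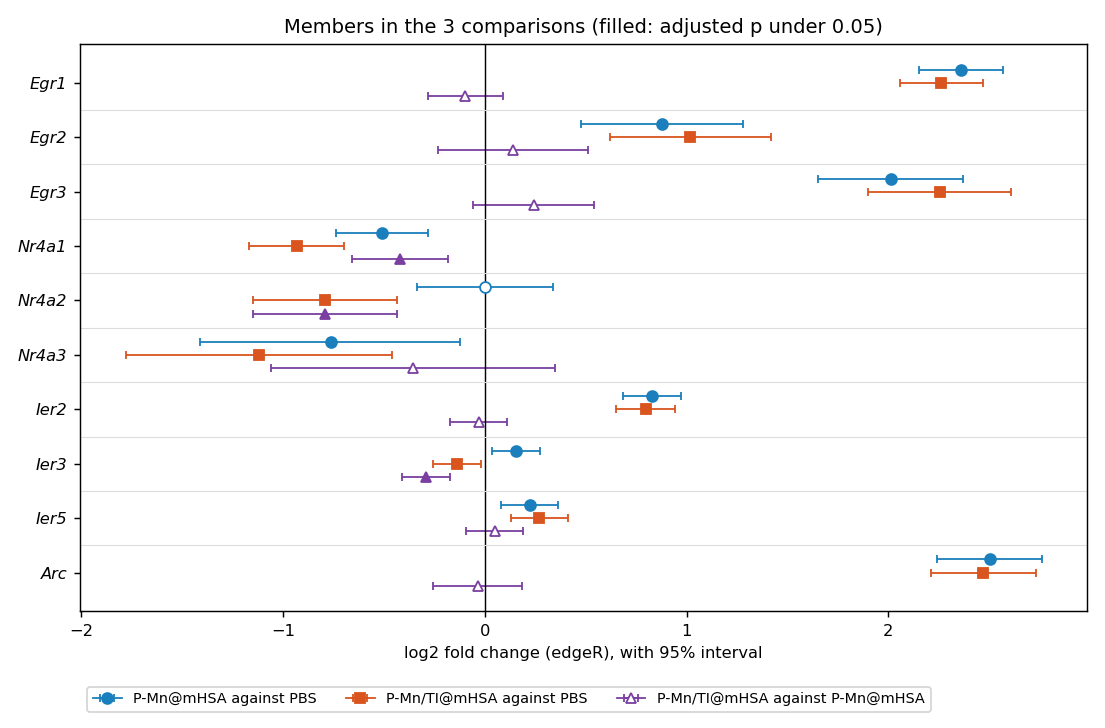
log2 fold change of each gene in the 3 comparisons, from edgeR, with its 95% interval. Filled symbols mark an adjusted p under 0.05. Egr1, Egr3 and Arc lie near or above 2 in both comparisons with PBS. Between the particles Egr1 and Arc lie near 0 and Egr3 lies at 0.242 with an open symbol. Nr4a1, Nr4a2 and Ier3 are the 3 genes with a filled symbol between the particles.

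Levels of different genes were compared per transcript length, in the deposited FPKM. With PBS, Ier3 was by far the most abundant at 476 ± 14.4 FPKM (SD, n = 3), ahead of Ier2 at 43.6 ± 3.52 and Ier5 at 23.3 ± 0.791. Egr1 at 7.38 ± 0.997 and Nr4a1 at 6.97 ± 0.263 overlapped in range, as did Nr4a2 at 2.77 ± 0.156 and Arc at 2.62 ± 0.516. Egr2 followed at 1.33 ± 0.231, and Egr3 at 0.68 ± 0.183 overlapped with Nr4a3 at 0.489 ± 0.139. The order changed with treatment at the middle of the range: with P-Mn@mHSA, Egr1 at 38.0 ± 1.68 FPKM stood above Ier5 at 27.3 ± 0.921, and Arc at 14.9 ± 2.09 stood above Nr4a1 at 4.91 ± 0.513. With P-Mn/TI@mHSA, Egr1 was at 35.5 ± 5.18 FPKM and Ier5 at 28.2 ± 1.38, and Nr4a1 at 3.66 ± 0.168 was close above Egr3 at 3.27 ± 0.159. With P-Mn@mHSA the ranges of Nr4a2, Egr3 and Egr2 overlapped, and Nr4a3 had the lowest mean of the 10 in each group.

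**Figure D4:**
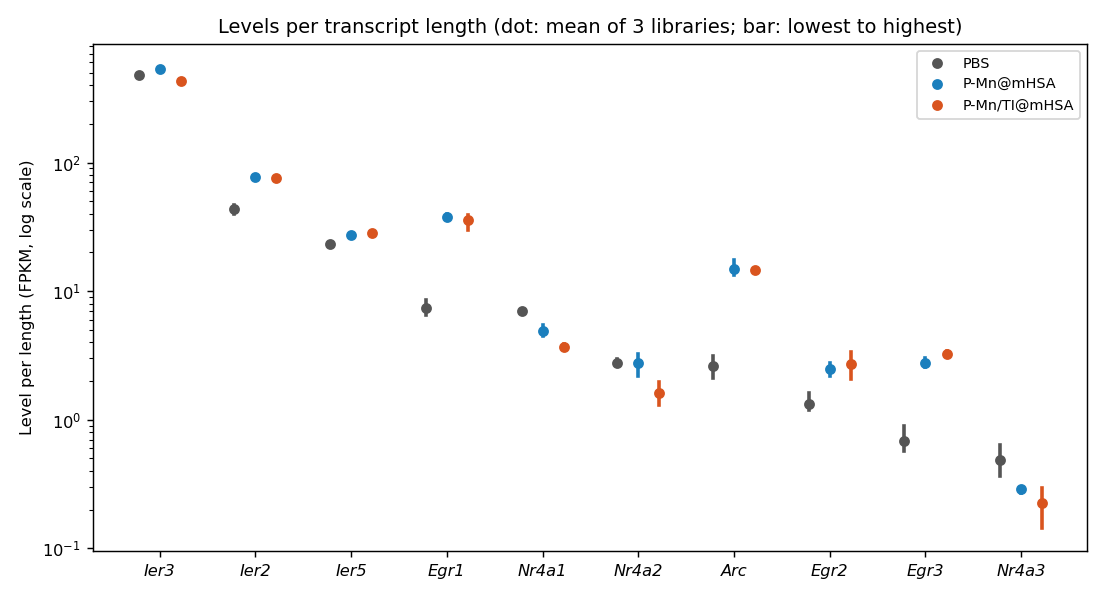
Level per transcript length of each gene in FPKM on a log axis, ordered by the PBS mean. Dots are means of 3 libraries and bars run from the lowest to the highest library. Egr1 and Nr4a1 are side by side with PBS at 7.38 and 6.97 FPKM and far apart with P-Mn@mHSA at 38.0 and 4.91 FPKM.

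Summed over a family, EGR transcripts were at 9.39 ± 1.19 FPKM with PBS, 43.2 ± 1.61 with P-Mn@mHSA and 41.5 ± 4.69 with P-Mn/TI@mHSA (SD, n = 3). Egr1 made up 77.2 to 79.6% of that sum with PBS, 87.1 to 88.4% with P-Mn@mHSA and 81.8 to 87.4% with P-Mn/TI@mHSA. The share of Egr2 went from 13.2 to 15% with PBS to 4.91 to 6.63% with P-Mn@mHSA. The NR4A sum was 10.2 ± 0.0246 FPKM with PBS, 7.97 ± 1.04 with P-Mn@mHSA and 5.49 ± 0.388 with P-Mn/TI@mHSA. EGR and NR4A transcripts were thus at like summed levels with PBS and at unlike ones with either particle. Nr4a1 was the largest part of the NR4A sum in each library, at 60.2 to 71.2%. The IER sum, most of it Ier3, was 543 ± 18.5, 636 ± 25.6 and 538 ± 19.5 FPKM.

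Most other early-response genes rose as well. Of 50 other early-response genes, 49 were tested. With P-Mn@mHSA 34 rose, 4 fell and 11 were not called (24.3% and 24.1% of all tested genes rose and fell), with 20 up by 2-fold or more (3.06%) and a median log2 fold change of 0.55. With P-Mn/TI@mHSA 37 rose, 9 fell and 3 were not called (27.1% and 27.3% of all tested genes), with 17 up by 2-fold or more (2.65%) and a median of 0.687. The medians over all tested genes were those given above, near 0. These counts, the 2-fold ones among them, include Ccn1, named after its values were seen. It was scarce, at 0.0683 ± 0.0688, 0.767 ± 0.157 and 0.641 ± 0.389 CPM (SD, n = 3). Ccn1 passed the filter only through the groups with particles, so its calls are no support for a rise among these genes. The lowest p-values were those of Plk2, a polo-like kinase, Atf3, a stress-induced factor of the ATF/CREB family, and Rgs2, which switches off G protein signalling. Plk2 was at 25.9 ± 4.5 CPM with PBS, 195 ± 14.4 with P-Mn@mHSA and 194 ± 24 with P-Mn/TI@mHSA (SD, n = 3), a rise of 7.52- and 7.47-fold (edgeR adjusted p = 5.12e-15 and 4.56e-15). Atf3 went from 35.3 ± 6.73 to 260 ± 18.1 and 224 ± 24.8 CPM, and Rgs2 from 3.19 ± 0.512 to 25.8 ± 2.09 and 23.4 ± 1.88 CPM. The 4 that fell with P-Mn@mHSA were Btg1, Gem and the mRNA decay factors Zfp36 and Zfp36l1, named after their values were seen, and each fell with P-Mn/TI@mHSA too.

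The AP-1 genes, whose proteins pair as Fos and Jun dimers, differed in the size of their change. Fosb rose from 2.07 ± 0.55 CPM to 14.4 ± 2.45 and 17.7 ± 1.06 CPM (6.94- and 8.54-fold), and Fos from 15.4 ± 1.46 to 40.3 ± 2.56 and 46.6 ± 0.535 CPM (2.61- and 3.02-fold). Junb rose 2.04- and 1.96-fold to 784 ± 22.7 and 755 ± 50.4 CPM, and Jund 2.16- and 1.98-fold to 118 ± 5.62 and 108 ± 11 CPM. Fosl1 rose 1.35- and 1.21-fold. Jun was at 69.8 ± 1.74, 78.5 ± 4.83 and 80.1 ± 4.41 CPM, which passed the threshold with P-Mn/TI@mHSA (edgeR adjusted p = 0.0241) and not with P-Mn@mHSA (0.0599). Fosl2 was at 263 ± 11.6, 252 ± 15.8 and 251 ± 6.54 CPM and was not called (adjusted p = 0.445 and 0.387).

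Between the particles 6 of these 49 genes differed, 3 higher and 3 lower, against 1.48% and 2.34% of all tested genes, 3.82% in all. The list median was -0.0581 beside -0.00702 over all tested genes. Rgs1, a relative of Rgs2, was 1.57-fold lower with P-Mn/TI@mHSA, at 23.1 ± 2.58 against 36.3 ± 1.11 CPM (edgeR adjusted p = 0.000826). Klf10 was 1.37-fold higher (38.5 ± 1.94 against 28.2 ± 3.0 CPM, adjusted p = 0.011) and Myc 1.33-fold higher (33.8 ± 2.55 against 25.4 ± 2.52 CPM, adjusted p = 0.0263). Outside the naming rule, Klf2 was higher (adjusted p = 0.0344), and Ptgs2, the inducible cyclooxygenase, and Crem were lower (0.0409 and 0.0298). Crem, a CREB-family gene that can yield repressor isoforms, was at 14.4 ± 1.38 CPM with PBS, 15.2 ± 1.98 with P-Mn@mHSA and 10.3 ± 1.39 with P-Mn/TI@mHSA. The number of these 49 genes called between the particles fell to 1 without P-Mn@mHSA replicate 2 or without P-Mn/TI@mHSA replicate 1. It fell to 3 without P-Mn@mHSA replicate 1 or P-Mn/TI@mHSA replicate 2.

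Transcripts of the signalling genes upstream moved in both directions. Of 27 kinases and transcription factors, 11 rose and 4 fell with P-Mn@mHSA (median log2 fold change 0.164), and 13 rose and 5 fell with P-Mn/TI@mHSA (0.144). Over all tested genes 24.3% rose and 24.1% fell with P-Mn@mHSA, and 27.1% and 27.3% with P-Mn/TI@mHSA, 48.5% and 54.4% in all. In both comparisons a larger share of the list rose and a smaller share fell than over all tested genes, which was not tested. Between the particles 0 differed by edgeR or DESeq2. At an unadjusted p under 0.05, 1 was higher and 3 were lower between the particles. Map2k1, which encodes an ERK-activating kinase, rose 1.64- and 1.55-fold from 244 ± 11.7 to 401 ± 7.51 and 378 ± 12.6 CPM. Rps6ka4, a kinase that acts on CREB, rose 1.57- and 1.61-fold from 52.9 ± 2.78 to 82.9 ± 1.82 and 85.2 ± 6.99 CPM. Creb1 itself fell 1.72- and 1.85-fold, from 46.0 ± 4.46 to 26.8 ± 1.24 and 24.9 ± 0.843 CPM (edgeR adjusted p = 4.02e-07 and 5.77e-08). Srf, named after its values were seen, rose 1.32- and 1.4-fold from 107 ± 4.84 to 141 ± 9.86 and 150 ± 7.24 CPM. The kinase genes Braf, Rps6ka3 and Rps6ka5, also named after their values were seen, fell 1.61-, 1.41- and 1.44-fold with P-Mn@mHSA. With P-Mn/TI@mHSA Braf and Rps6ka3 fell 1.81- and 1.58-fold, and Rps6ka5 was not called (edgeR adjusted p = 0.136). Mapk8, Mrtfa and Elk3 had the lowest p-values between the particles, at adjusted p = 0.142, 0.155 and 0.228. These are transcript levels, and kinase activity and phosphorylation were not measured.

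The partners and repressors of EGR and NR4A proteins included a pair that moved in opposite directions. Nab1 and Nab2 both encode corepressors that bind EGR proteins. Nab2 rose from 31.7 ± 0.711 CPM to 62.7 ± 2.53 and 60.7 ± 5.17 CPM, 1.97- and 1.91-fold (edgeR adjusted p = 2.58e-09 and 4.81e-09). Nab1 fell from 84.7 ± 1.56 CPM to 59.1 ± 7.3 and 47.7 ± 3.58 CPM, 1.43- and 1.77-fold (adjusted p = 3.08e-05 and 6.35e-08). Rara, a retinoic acid receptor, rose 1.65- and 1.84-fold to 49.6 ± 6.27 and 55.4 ± 3.06 CPM. Over the 12 genes of this kind, 3 rose and 4 fell with P-Mn@mHSA (median 0.0338), and 6 rose and 4 fell with P-Mn/TI@mHSA (0.216), beside 48.5% and 54.4% of all tested genes called. Between the particles edgeR called Nab1 alone, 1.24-fold lower with P-Mn/TI@mHSA (adjusted p = 0.049), where 3.82% of all tested genes were called. No gene of this list was called between the particles in the fit of the 6 libraries, or when any 1 library other than PBS replicate 1 or P-Mn@mHSA replicate 3 was left out. Ncoa3, a coactivator, was at an adjusted p of 0.153 there.

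Of 16 genes described as targets of EGR or NR4A proteins, 12 were tested. With P-Mn@mHSA 4 were called higher (Nab2, Pdgfa, Pdgfb and F3) and 3 lower, Ptges and Pomc among them, a total of 7 of 12 where 48.5% of all tested genes were called, with a median log2 fold change of 0.146. F3 and Pomc were named after their values were seen. With P-Mn/TI@mHSA the same 4 and Icam1 were called higher and 2 lower, Ptges among them, 7 of 12 where 54.4% of all tested genes were called, with a median of 0.15. Taken in both directions, these shares are near those over all genes. Upward alone, 24.3% and 27.1% of all tested genes were called. The upward count of the list includes F3, and Nab2 is also on the list of partners and repressors, so no excess of rising targets is read from it. Pdgfb, a growth factor chain, rose 2.87- and 3.16-fold from 137 ± 12.6 to 394 ± 42.7 and 435 ± 29.3 CPM (edgeR adjusted p = 1.86e-12 and 4.07e-13). Ptges, a prostaglandin E synthase, fell 3.55- and 4.18-fold from 26.7 ± 0.391 to 7.53 ± 1.74 and 6.37 ± 0.815 CPM (adjusted p = 1.48e-09 and 2.82e-10). F3, the tissue factor of coagulation, was scarce, at 0.0906 ± 0.0784, 0.969 ± 0.358 and 0.869 ± 0.366 CPM, and passed the filter only through the groups with particles, so its call is no support for a rise among these genes. Between the particles 0 were called by edgeR or DESeq2, with 1 higher at an unadjusted p under 0.05. Icam1, Pdgfb and Pdgfa had the lowest p-values there, at adjusted p = 0.137, 0.306 and 0.316.

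**Figure D5:**
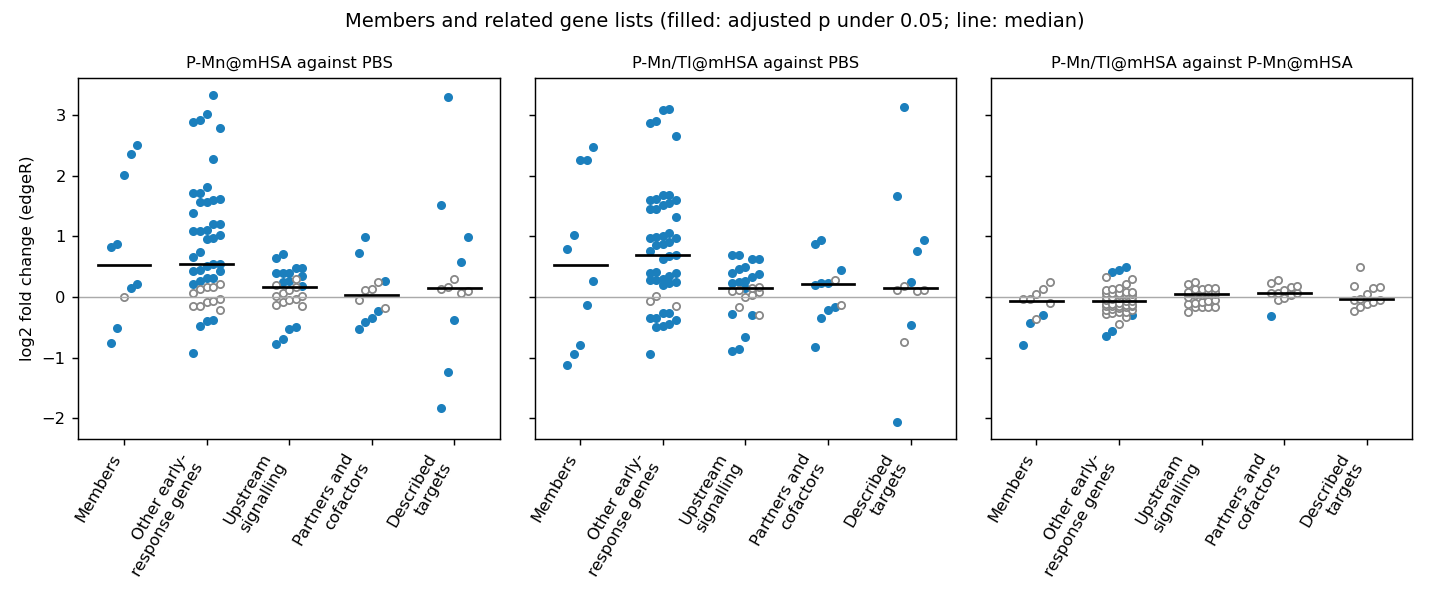
log2 fold change of each tested gene among the 10 early-response genes and in 4 related lists, in the 3 comparisons, from edgeR. Points are genes, filled where the adjusted p was under 0.05, and the line is the list median. In the comparisons with PBS the median of the 49 other early-response genes was 0.55 and 0.687, above the 0.164 and 0.144 of the upstream genes, and the points draw close to 0 between the particles.

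Across the 9 libraries the 10 genes fell into like and unlike profiles. As a description, with no p since the libraries share the group differences, Pearson's r of log2 CPM was 0.99 for Egr1 and Arc, 0.98 for Egr1 and Ier2, and 0.97 for Egr1 and Egr3. It was -0.85 for Egr1 and Nr4a1, 0.77 for Nr4a1 and Nr4a2, and 0.80 for Nr4a1 and Nr4a3. Ier3 stood apart from Egr1 (0.09) and was nearest among these to Nr4a2 (0.76). Among 8314 genes with a mean of at least 10 CPM, the profile most like that of Egr1 was Ppp1r15a (0.9984), a stress-induced subunit of protein phosphatase 1, at means of 39, 171 and 160 CPM in the 3 groups. Ndrg1 (0.9975) and Gys1 (0.9972) came next.

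The other profiles had their own nearest genes in the same 9 libraries. For Egr3 these were Endod1 (0.9963), Dus3l (0.9955) and Fosb (0.9954), for Arc Exosc10 (0.9987), Zfpl1 (0.9971) and Mknk2 (0.9960), and for Ier2 Adm (0.9976), Pgp (0.9947) and Dusp1 (0.9944). For Nr4a1 they were Sc5d (0.9901), an enzyme of cholesterol synthesis, Rab5a (0.9890) and Ptgir (0.9840), the prostacyclin receptor. For Nr4a2 the nearest was Coq10b (0.9645), at means of 12.8, 12.8 and 9.27 CPM, followed by Tor1b (0.9441) and Grina (0.9235). For Ier3 it was Pdia6 (0.9673), with Zbtb32 (0.9654) and Mlkl (0.9568). The best matches of Egr2 (Pecr, 0.9811) and Nr4a3 (Sqor, 0.9446) were less close than that of Egr1.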

How the data were processed

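RNA of 9 RAW264.7 libraries was sequenced, 3 per group. The deposited table gives raw read counts per gene, per the file headers, and the authors' FPKM values, which equal the count divided by gene length and 1 constant per library. The submitters' processing notes name cutadapt 1.9, FastQC and build GRCm38. The aligner, the counter and how strand and multiply mapped reads were handled remain not given in the sources used here. The table's start and end positions matched GENCODE M21 (GRCm38) for 1472 of 52073 shared genes, so only its chromosomes are given. Of all 50-base stretches of the members' transcripts, at most 0.0501% (Nr4a3) recur in another gene.

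Counts were tested in edgeR 4.0.16 (R 4.3.3). filterByExpr kept 12454 genes and at least 99.873% of the counts of each library, TMM scaling was used, and 1 quasi-likelihood model of 3 group means was fitted to the 9 libraries. Tests were two-sided with Benjamini-Hochberg adjustment over all tested genes of a comparison. Levels are TMM-scaled CPM, mean ± SD, except that the cell type marker levels are CPM of the total count without TMM scaling. The alternatives were RLE and upper-quartile scaling, DESeq2 1.42.0, no filter, limma 3.58.1 on log2(FPKM + 1) and log2(FPKM + 0.1) at a mean FPKM of at least 0.5, a replicate block, the 6 compared libraries alone, and leaving out each library. The fit was tested on simulated counts with 200 changed genes.

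Whether the triplicates were separate cultures is not said in the labels. The p-values thus reflect how these libraries vary, and that variation may be technical. Same-numbered libraries did not deviate together (r of -0.0661 to 0.0611), so the numbers were not used as pairs. Members and lists were chosen with earlier results of these data known. The text names all members, Egr4, Ier5l and Wt1, the AP-1 genes, the 3 genes of lowest p per list and comparison, and the 3 genes of highest correlation with a member. A few genes that this rule would name are not reported here.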

Additional observations from a re-analysis of the deposited data

How the results depend on the processing

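Against PBS, the calls of Egr1, Egr2, Egr3, Ier2, Ier5, Arc and Nr4a1, and those of Nr4a2 and Nr4a3 with P-Mn/TI@mHSA, kept their direction and their side of the threshold in every alternative run, except that Nr4a3 was below the FPKM minimum of the limma fits and had no value there. The calls that were lost are those of Ier3 and of Nr4a3 with P-Mn@mHSA, and the 3 calls between the particles. Where a value changed, the cause was not tested.

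Genes lower with P-Mn@mHSA against PBS, 2 of the 10, became 1 with DESeq2, with limma at either pseudocount and with the replicate block, and ranged from 1 to 2 without any 1 library. Genes lower with P-Mn/TI@mHSA against PBS, 4, became 2 with limma at either pseudocount, where Nr4a3 was not tested. Between the particles the 3 members called, all lower, became 0 with limma at either pseudocount and ranged from 1 to 3 without any 1 library, with 1 left without P-Mn/TI@mHSA replicate 3.

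Over all tested genes, 476 differed between the particles. This became 791 with no filter, 76 with limma on log2(FPKM + 1), 48 on log2(FPKM + 0.1), and ranged from 129 without P-Mn/TI@mHSA replicate 1 to 794 without P-Mn@mHSA replicate 3. Lists were counted under each alternative as a choice made after seeing the data. Between the particles the 6 other early-response genes became 1 with limma at either pseudocount and ranged from 1 to 7 without any 1 library. The 0 upstream genes ranged from 0 to 1, with 1 without P-Mn@mHSA replicate 3. The 1 partner gene became 2 with DESeq2 and with no filter, 0 with limma at either pseudocount and in the fit of the 6 libraries, and ranged from 0 to 2.

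Directions turned only for differences near 0. The log2 fold change of Nr4a2 with P-Mn@mHSA was -0.0242 with upper-quartile scaling, -0.005756 and -0.01201 with limma, and ranged from -0.1273 to 0.1538 without any 1 library. Between the particles, Egr1 ranged from -0.167 to 0.0186, Egr2 from -0.04722 to 0.3014 and Arc from -0.1096 to 0.08472 without any 1 library.

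With the replicate number as a block, a number that did not pair the libraries, 7, 9 and 2 of the 10 genes were called in the 3 comparisons, against 9, 10 and 3. The block gave -0.008036 for Nr4a2 with P-Mn@mHSA and 312 genes between the particles. Nr4a3 had 13 to 57 counts a library, which limits the precision of its values.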
